A study of Mus musculus with 2 samples.

Results

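Of the 21192 peaks called in an ac4C immunoprecipitation of mouse uterus RNA, 476 (2.25%, 95% Wilson interval 2.06 to 2.45%) had their summit in a pseudogene and in no protein-coding gene. They were found by setting each summit, the base of greatest signal in a peak, against the spans of RefSeq genes on GRCm38. A summit was kept when a gene of any pseudogene kind held it and no protein-coding span did. The 476 peaks lay in 409 pseudogenes and were grouped by the gene each pseudogene is named as a copy of, its parent. Parents were read from gene symbols and their synonyms, which named one for 153 of the 476 peaks.

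The RNA was that of whole uterus, from wild-type mice at gestational day 4, and both libraries were made from polyA RNA. The ac4C immunoprecipitation group was 1 library and the input control group was 1 library. The labels do not say whether the RNA was pooled from several animals. With no replicates, no value below has a replicate check, and every interval covers counting error alone. The labelled tissue was checked by marker genes: 14 of 18 held a peak, among them 5 of 5 of the uterine stroma, 3 of 3 of the myometrium, 2 of 2 of the endothelium and 3 of 4 of the epithelium (Epcam held none). Neither of 2 leukocyte markers held a peak, and 1 of 2 red cell markers did. Of all protein-coding genes, 30.7% held one, so the counts of these last lists do not stand apart from it.

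N4-acetylcytidine (ac4C) is a cytidine carrying an acetyl group, a modification long known from transfer and ribosomal RNA. It is placed by the acetyltransferase Nat10. In acRIP-seq, RNA fragments bound by an antibody to ac4C are sequenced along with an input sample of the same kind of RNA. A processed pseudogene is a copy of an mRNA that was reverse transcribed and inserted elsewhere in the genome. It lacks the introns of its parent, resembles the parent's mature mRNA closely and usually has no promoter of its own. Genes transcribed strongly in the germ line, such as those of ribosomal proteins and glycolytic enzymes, have left many such copies. Nuclear inserts of mitochondrial DNA are copies of another kind. A short read from the parent's mRNA can match a copy nearly as well as the parent, so reads of a copy and of its parent are uncertain wherever their sequences are alike. How the authors' alignment placed such reads is not given in the sources used here, and the part that shared reads have in the values below was not tested.

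Ribosomal protein genes were the largest group of named parents, with 78 peaks in 74 pseudogenes, which was 16.4% of the 476. Metabolic genes had 11 peaks in 9 pseudogenes. A nuclear insert of mitochondrial DNA had 1 peak, and copies of ribosomal RNA genes had 2. Other named parents had 61 peaks in 50 pseudogenes, and for 48 of these peaks the parent matched a protein-coding gene. In no family do the symbols tell processed copies from copies of other kinds. A further 10 peaks lay in 7 pseudogenes that carry a gene name of their own, with no mark of a copy. For the remaining 313 peaks, in 266 pseudogenes, the symbol was a serial number and named no parent, so copies of any of these families can be among them.

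Enrichment was compared as the authors' fold enrichment, the signal at the summit over the background expected there, which is each peak's own value. Its median over the 476 peaks was 6.83 (interquartile range 5.31 to 9.11), against 5.56 over the other 20716 peaks. The median was 6.92 in ribosomal protein copies (5.39 to 9.11), and in the metabolic copies 6.18 (5.19 to 7.11), the copies of other named parents 6.26 (5.19 to 9.04) and the pseudogenes without a named parent 6.83 (5.31 to 9.59). These ranges overlapped, and the medians of the 4 families lay closer together than the quartiles of any one of them. A fold enrichment of at least 10 was reached by 100 pseudogene peaks (21.0%, interval 17.6 to 24.9%), where 10% of all peaks reached it. The count was 15 of 78 for ribosomal protein copies, 2 of 11 for metabolic copies, 8 of 61 for other named parents and 72 of 313 where no parent was named. At least 20 was reached by 14 pseudogene peaks (2.94%), where 0.835% of all peaks reached it.

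Pseudogene peaks had a median width of 283 bp (interquartile range 216 to 419 bp) against 316 bp for other peaks. Within the classes of background given below, the order was mixed. Under 0.5 fragments the medians were 229 and 257 bp, and from 0.5 to 1 they were 250 and 268 bp. From 1 to 2 they were 313 and 290 bp, and from 2 to 4 they were 292.5 and 324 bp. From 4 to 8 they were 427 and 351 bp, and from 8 to 16 they were 305 and 367 bp. From 16 to 32 they were 361 and 377.5 bp, and above that, with 3 pseudogene peaks, 1006 and 442 bp. The part of the background in these widths was not tested. The ribosomal protein copies had the narrowest median of the larger families, 260.5 bp, followed by 276 bp where no parent was named, 281 bp for metabolic copies and 311 bp for other named parents. Widths of 1000 bp or more were found in 14 pseudogene peaks (2.94%) against 5.50% of all peaks, and in none of the 78 ribosomal protein copies. Pseudogenes are short, with a median span of 1028 bp for those that held these peaks, and 407 of the 476 peaks lay wholly inside theirs. In the ribosomal protein copies the median span was 624 bp, of which a peak covered 45.6%.

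**Figure D1:**
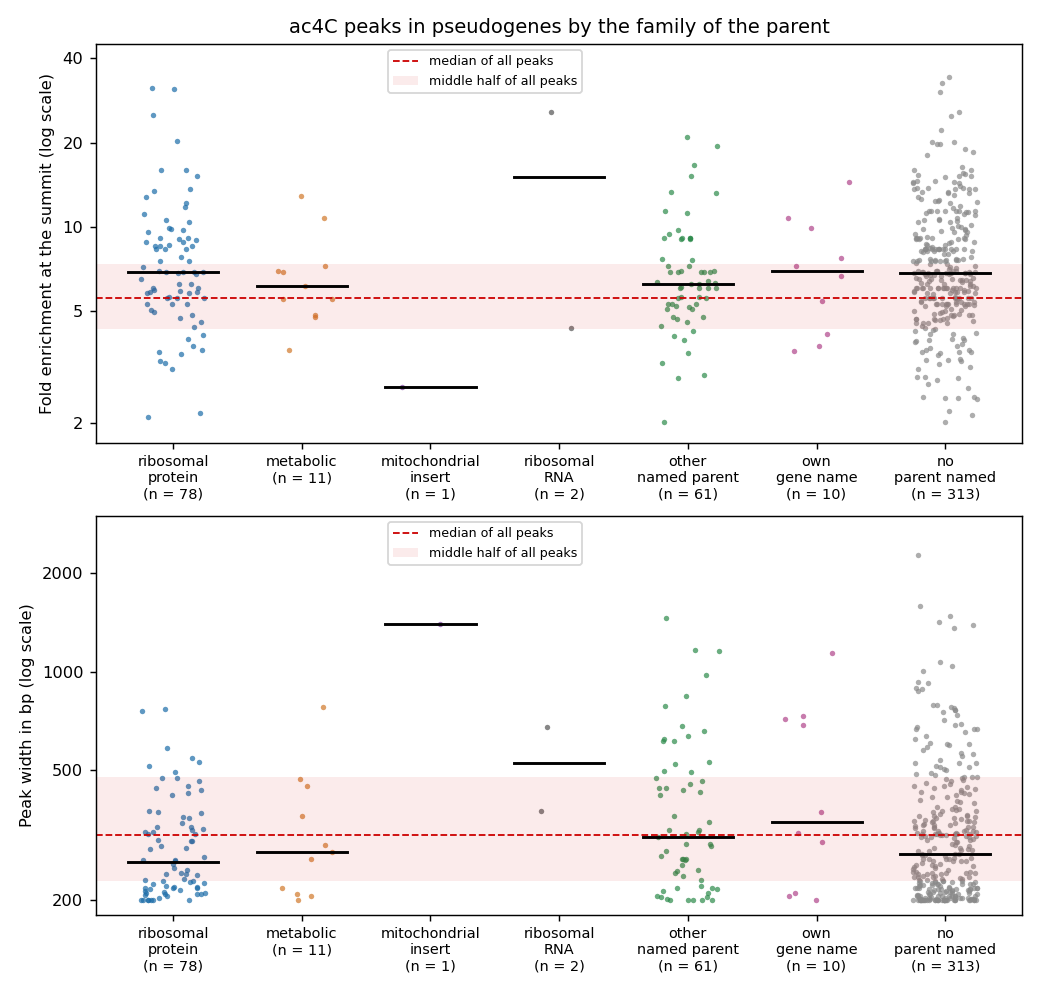
Fold enrichment at the summit (top, log scale) and peak width in bp (bottom, log scale) of each of the 476 pseudogene peaks, grouped by the family of the parent; each point is a peak, black bars are medians, and the red line and band are the median and interquartile range of all 21192 peaks. Median folds of the 4 larger families lie between 6.18 and 6.92, above the median of all peaks, 5.58. The mitochondrial insert, at 1396 bp and 2.68, is wider and less enriched than the median of each other family, though single peaks go beyond it.

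The families differed in the share of their pseudogenes that held a peak. The gene table lists 10622 pseudogenes, of which 8394 touch no protein-coding span, and 405 of these (4.82%) held a summit. Among ribosomal protein copies it was 75 of 256 (29.3%, 95% Wilson interval 24.1 to 35.2%). Among metabolic copies it was 9 of 41 (22.0%, interval 12 to 36.7%). Copies of other named parents held a summit in 45 of 1245 cases (3.61%, interval 2.71 to 4.80%), and pseudogenes without a named parent in 267 of 6554 (4.07%, interval 3.62 to 4.58%). Pseudogenes with a gene name of their own held one in 6 of 282 cases (2.13%, interval 0.979 to 4.56%). The intervals of the ribosomal protein and metabolic families overlapped each other and lay above those of these 3 larger groups. Copies of ribosomal RNA genes, 2 of 15 (13.3%, interval 3.74 to 37.9%), and the mitochondrial insert, 1 of 1, were too few to set apart from either. They treat pseudogenes as independent, which copies of 1 parent are not.

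Ribosomal protein copies and pseudogenes without a named parent were also compared within classes of length. Ribosomal protein copies were shorter, with a median span of 531 bp against 980 bp where no parent was named. Among spans of up to 500 bp, 21 of 91 ribosomal protein copies (23.1%) held a summit against 3.24% of pseudogenes without a named parent. From 501 to 1000 bp it was 45 of 143 (31.5%) against 4.42%, and from 1001 to 2000 bp 9 of 18 (50%) against 4.60%.

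**Figure D2:**
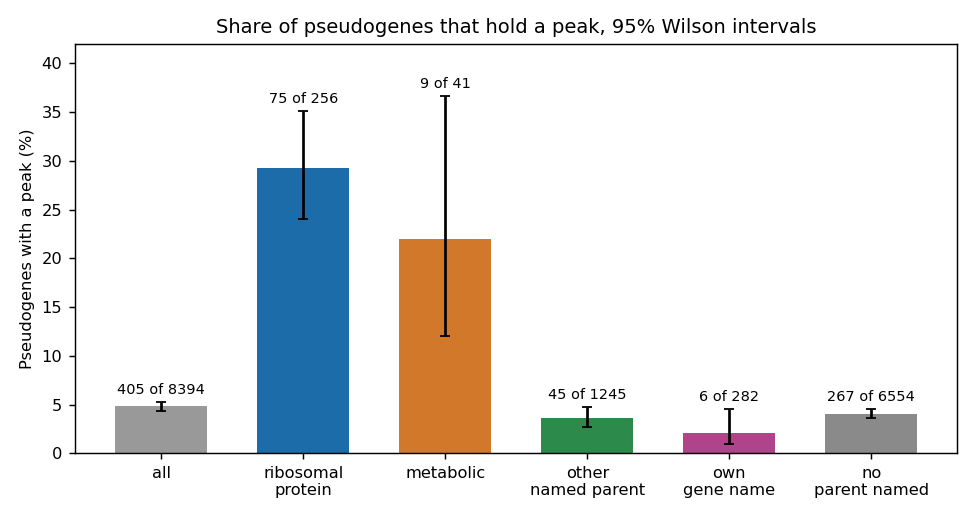
Share of pseudogenes outside protein-coding spans that held the summit of a peak, in percent, by family of the parent; bars are shares, error bars are 95% Wilson intervals that cover counting error, and the grey bar at the left is all such pseudogenes, 4.82%. The ribosomal protein and metabolic families stand at 29.3% and 22.0%, while other named parents and pseudogenes without a named parent stand at 3.61% and 4.07%.

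The ribosomal protein copies held 4 of the 14 pseudogene peaks of at least 20-fold. Ribosomal proteins build the small (Rps) and large (Rpl) subunits of the cytosolic ribosome. Rpl18-ps1 (gene 667100) had a peak at chr1:60900766-60901533 that covered the whole pseudogene, with 40 fragments over a background of 0.317 and a fold enrichment of 31.1 (exact Poisson interval 22.5 to 42.1). Rps6-ps1, a copy of the small subunit protein phosphorylated by S6 kinases, had 37 fragments at chr15:76338036-76338300 and a fold of 20.3 (interval 14.4 to 27.7). Both of these had a background under 1 fragment. At the other end, Rpl17-ps3 on chromosome 12 had a fold of 2.11 and Rps7-ps3 on chromosome X 2.18, over backgrounds of 17.5 and 29.3 fragments.

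Copies of Rps12 held more peaks than copies of any other parent, 11, each in a different copy, out of 18 copies outside protein-coding spans. Rps12 itself held 1 peak, with a fold of 3.77 (interval 2.74 to 5.06) on 42 fragments over a background of 10.4. Of the 11 copies, 8 lay in a row on chromosome X. From the first of these peaks to the last, chrX:124349737-125857922, is 1508 kb. Next along the chromosome lies Rps12-ps16, at chrX:125986953-125987385, which had no peak. These 9 copies have spans of 410 to 497 bp. Along the chromosome the fold was 9.60 in Rps12-ps6, 8.53 in Rps12-ps11, 6.92 in Rps12-ps12, 13.7 in Rps12-ps18, 4.39 in Rps12-ps15, 5.62 in Rps12-ps17, 6.93 in Rps12-ps13 and 11.8 in Rps12-ps14. The 8 peaks were alike in size, 216 to 303 bp, with 12 to 17 fragments each over backgrounds of 0.317 to 2.19, and their summits lay a median of 129.4 kb apart. Rps12-ps1, elsewhere on chromosome X, had a fold of 10.4. Rps12-ps24 on chromosome 8 had 15.2 and Rps12-ps10 on chromosome 2 had 5.32. The interval lay wholly above that of the parent for Rps12-ps1, Rps12-ps6, Rps12-ps14, Rps12-ps18 and Rps12-ps24, and overlapped it for the other 6.

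Rpsa, whose product is a small subunit protein also known as the laminin receptor, followed with 9 peaks in 7 of its 13 copies. The parent's highest peak had a fold of 3.47 (interval 2.92 to 4.09) on 139 fragments over a background of 39.4. Rpsa-ps9 on chromosome 2 had the highest fold among its copies, 12.8 on 23 fragments. Rpsa-ps7 held peaks of 11.1 and 3.28, Rpsa-ps10 peaks of 5.89 and 3.53, and Rpsa-ps2 a peak of 8.55. Rpsa-ps1, Rpsa-ps4 and Rpsa-ps12 had 6.93, 4.87 and 4.13. Rps18 and Rps2, both of the small subunit, had 4 copy peaks each. Those of Rps18 had folds of 15.9 in Rps18-ps1, 8.52 in Rps18-ps3, 5.85 in Rps18-ps5 and 3.58 in Rps18-ps6, against 2.47 at the highest peak of the parent. Those of Rps2 had 7.55 in Rps2-ps8, 6.07 in Rps2-ps7, 4.99 in Rps2-ps6 and 4.73 in Rps2-ps13, against 4.28. For Rps12, Rps18 and Rps2 each copy peak had a higher fold than the parent's highest, and for Rpsa all but 1 of 9 did.

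Over the whole family, 35 ribosomal protein genes were parents of copies with peaks. Of these, 23 (65.7%, interval 49.2 to 79.2%) held a peak themselves, against 30.7% of all protein-coding genes. The share was 59.5% over all 84 cytosolic ribosomal protein genes, within that interval, so these parents do not stand apart from their family. Where both had one, the copy's fold exceeded the parent's highest fold at 52 of 63 copy peaks. Its interval lay wholly above the parent's at 24 and wholly below at 0. The background moved with this: it was lower at the copy than at the parent in 56 of the 63, with a median of 1.31 at the copies and 12.7 at the parents. Among peaks outside pseudogenes too, the median fold fell as the background rose from 2 fragments upward, as given below. Of the 23 parents' highest peaks, 17 lay above the median fold of their class of background. Among copy peaks 53 of 78 (67.9%) did, but there every peak was counted and not only the highest, so the counts are not comparable. The part of the background in the difference between copies and parents was not tested. The 15 copy peaks whose parent held none had a median fold of 6.26, against 7.19 for the 63.

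**Figure D3:**
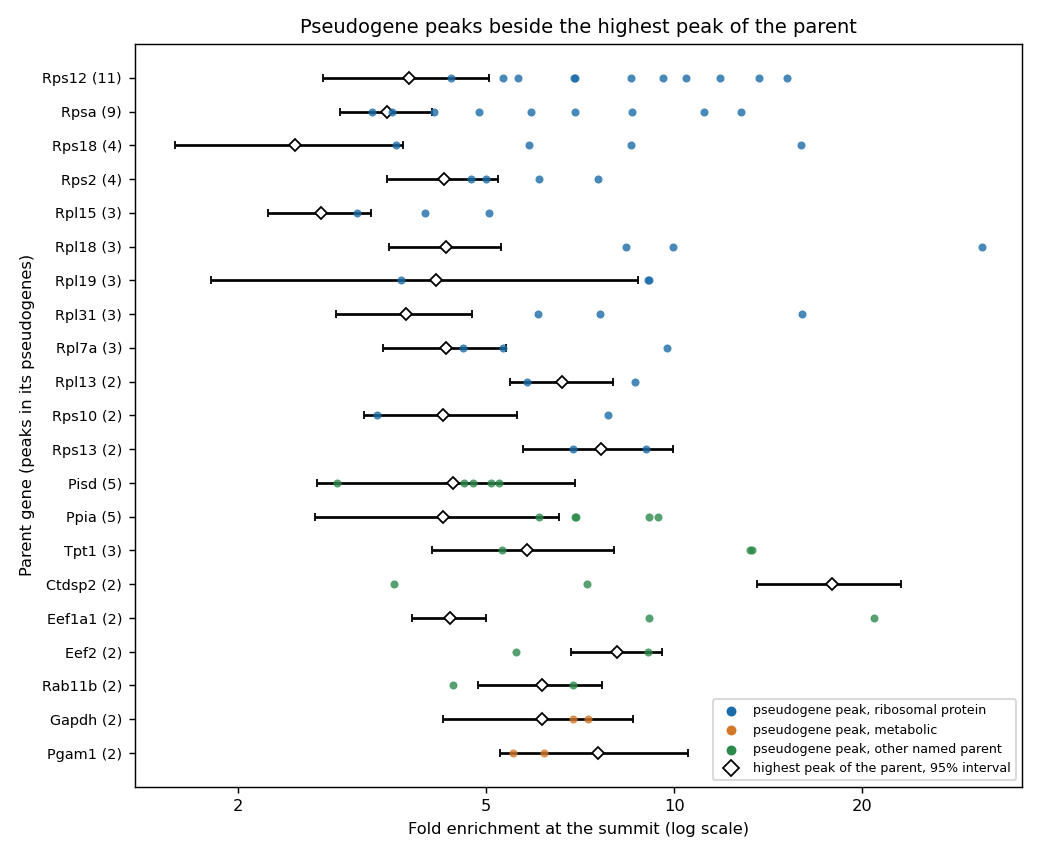
Fold enrichment of pseudogene peaks (coloured points, log scale) beside the highest peak of the parent gene (open diamonds with 95% exact Poisson intervals) for parents that held a peak and had 2 or more copy peaks, without those not reported here; the number of copy peaks follows the name. Copies of Rps12, Rpsa and Rps18 reach 15.2, 12.8 and 15.9, and 1 of the 9 peaks in Rpsa copies lies below the parent's value.

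Of the 84 cytosolic ribosomal protein genes in the pathway list, 50 held a peak (59.5%, interval 48.8 to 69.4%), with a median of 4.29 at the highest peak. Their 252 copies outside protein-coding spans had peaks in 75. Of 18 glycolysis genes, 13 held a peak, with a median highest fold of 7.55, and 5 of their 18 such copies did. Of 88 oxidative phosphorylation genes, which code for the respiratory chain in mitochondria, 25 (28.4%) held a peak, close to the 30.7% of all protein-coding genes, and of their 11 copies none did. Of all pseudogenes outside protein-coding spans 4.82% held one, so a count of 0 in 11 does not set these copies apart.

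All 11 metabolic peaks are few enough to give. Gpi-ps, a copy of the glycolytic enzyme glucose-6-phosphate isomerase (Gpi1), had the highest fold, 12.9 (interval 7.70 to 20.5), on 16 fragments over a background of 0.317. Its peak, chr8:5640390-5641166, was also the widest of the family at 777 bp. The parent Gpi1 held 9 peaks, the highest with a fold of 12.4 (interval 9.03 to 16.6). Gstm2-ps1, a copy of a glutathione S-transferase, had 10.8 (interval 6.92 to 16.05) at chr5:116632968-116633413, against 5.55 (interval 4.38 to 6.94) at its parent. The intervals of both pairs overlapped.

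Gapdh, which codes for a glycolytic dehydrogenase often used as a reference gene, had 2 copies with peaks, Gapdh-ps16 on chromosome 8 with a fold of 7.27 and Gapdh-ps15 on chromosome Y with 6.88. Its own highest peak had 6.14 (interval 4.26 to 8.59). Female mice carry no chromosome Y, so the reads at Gapdh-ps15 cannot be taken as RNA of that copy in these mice. Glns-ps1, a copy of glutamine synthetase (Glul), had 6.96 on 9 fragments. Pgam1-ps2, a copy of phosphoglycerate mutase, held peaks of 6.18 and 5.52, against 7.55 at its parent. Impdh2-ps, a copy of an enzyme of guanine nucleotide synthesis, held peaks of 5.52 and 4.76, and Impdh2 held none. Tpi-rs11, related to triosephosphate isomerase, had 4.87, and Got2-ps1, a copy of the mitochondrial aspartate aminotransferase, had 3.64. Of 9 metabolic copy peaks whose parent held a peak, 5 had a higher fold than the parent, and no pair had intervals apart. Overlapping intervals do not show that a copy and its parent are alike, and no pair was tested for a difference.

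The peak of the mitochondrial insert was close to a peak of the mitochondrial genome in width, depth and fold, and wider, deeper and less enriched than the median of any other family of copies. Gm10925 (gene 100503946, also named mt-Atp6 after a subunit of the ATP synthase encoded in mitochondria) spans 681 bp on chromosome 1. Its peak, chr1:24613344-24614739, ran past both ends of it and was 1396 bp wide, with 234 fragments over a background of 86.7 and a fold of 2.68 (interval 2.35 to 3.05). The peak over ATP6 in the mitochondrial genome itself was 1419 bp wide, with 241 fragments over a background of 81.9 and a fold of 2.92 (interval 2.57 to 3.31). The intervals of the folds overlapped. The 10 peaks of the mitochondrial genome had folds of 2.23 to 2.96 over backgrounds of 70.0 to 101.8, and Gm10925 lay within both ranges.

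The same stretch of chromosome 1 held 3 more peaks of this kind. Gm10222, a pseudogene with no named parent, had a peak 1006 bp wide with 179 fragments over a background of 72.7 and a fold of 2.44. A peak of 509 bp with a fold of 2.65 and a peak of 438 bp with 2.78 lay in no gene. The 509 bp width is 1 bp more than that of the mitochondrial peak next to ATP6, at positions 7083 to 7590, which had a fold of 2.96.

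The 2 copies of ribosomal RNA genes stood far apart. Rn5s-ps1, a copy of the 5S ribosomal RNA gene on chromosome 8, is 111 bp long and lay inside a peak of 375 bp, chr8:123601427-123601801, with a fold of 25.8 (interval 18.01 to 35.9) on 33 fragments over a background of 0.317. Rn18s-rs5, a sequence related to 18S ribosomal RNA on chromosome 17, had 4.36 (interval 3.68 to 5.12) on 145 fragments over a background of 32.5. 18S ribosomal RNA is a known carrier of ac4C. Both libraries were labelled polyA RNA, from which ribosomal RNA is largely removed.

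Among the copies of other named parents, Eef1a1-ps1 had the highest fold, 20.9 (interval 15.1 to 28.3) at chr19:17926593-17926911. Its parent codes for translation elongation factor 1 alpha, and held a peak of 4.37 (interval 3.80 to 5.002) on 208 fragments over a background of 46.8. A second peak in the same copy had 9.11. Mif-ps, a copy of the cytokine gene Mif, had 19.5 (interval 13.1 to 28.02), against 12.3 (interval 10.1 to 14.8) at its parent. Actg-ps1, a copy of the cytoplasmic actin gene Actg1, had 16.7 (interval 10.6 to 25.1), against 3.82 (interval 3.25 to 4.47). The intervals were apart for Eef1a1 and Actg1 and overlapped for Mif.

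Ppia, the gene of cyclophilin A, had peaks in 5 of 47 copies, with folds of 9.41 in Gm4828, 9.11 in Gm4824, 6.96 in Gm5558, 6.93 in Gm6063 and 6.07 in Gm5497 on 7 to 15 fragments, and 4.27 at the parent. The 5 peaks of Pisd copies, named for a mitochondrial enzyme of phospholipid synthesis, had folds of 2.89 to 5.24, near the 4.43 of the parent. Of them, 4 lay in Pisd-ps1 on chromosome 11. In this family the copy had the higher fold at 28 of 42 copy peaks whose parent held one, with intervals apart above the parent at 5 and below it at 4. The 4 below, named here after their values were seen, were both peaks of Ctdsp2-ps (7.25 and 3.55, against 17.9 at Ctdsp2, a phosphatase gene), Anp32b-ps1 (6.07 against 16.8) and Gm7935, a copy of the splicing factor gene Sf3b4 (5.56 against 17.1). Of the 33 parents matched in this family 28 held a peak (84.8%), and of 8 metabolic parents 7 did, where 30.7% of all protein-coding genes held one. Of the 18 glycolysis genes 72.2% held one, within the interval of the metabolic parents (52.9 to 97.8%). For the other named parents no like family was counted. These shares therefore do not tie peaks in parents to peaks in their copies.

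The 7 pseudogenes with a gene name of their own held 10 peaks with folds of 3.62 to 14.5. H2ac14, listed as a pseudogene in a cluster of histone genes, had the highest, 14.5 (interval 11.1 to 18.7) on 58 fragments at chr13:21721462-21721761, and lay 425 bp from a protein-coding gene. Tnxa, a partial copy of the tenascin gene Tnxb, held peaks of 10.8 and 6.67. Erdr1 on chromosome X had 9.95 (interval 8.68 to 11.4) on 218 fragments over a background of 21.0, well above the upper quartile of pseudogene peaks, 32 fragments. H2-Q5, of the major histocompatibility complex, held peaks of 7.74 and 4.17, and Zxda on chromosome X peaks of 7.27 and 5.45. Sprr2g had 3.76 and Oas1b 3.62.

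The pseudogenes without a named parent held 8 of the 14 peaks of at least 20-fold, among them the highest of all 476. Gm13226 (gene 545701) had a fold of 34.2 (interval 25.04 to 45.6) on 44 fragments at chr4:145576802-145577202. Gm7808 had 32.7 (interval 23.7 to 43.9) at chr9:19927813-19928377, where the peak covered the whole pseudogene of 509 bp. Gm8225 had 30.4 at chr17:26543144-26543476. Gm9512 had 25.8, Gm8399 24.9, Gm13192 22.3, and Gm6170 and Gm5835 20.2 each. The background was under 1 fragment at all 8. Gm39743 on chromosome 1 held the most peaks, 8 along its 7973 bp, with folds of 2.76 to 9.59 and widths of 237 to 1595 bp. Gm43828 on chromosome 5 held 5. The widest pseudogene peak, 2283 bp, lay in Gm2792 on chromosome 17 and had a fold of 12.4. Most pseudogenes held 1 peak (356 of 409), 47 held 2, and 6 held 3 or more.

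The background moved with the enrichment of pseudogene peaks as a whole. Its median was 1.31 fragments at pseudogene peaks and 2.63 at the others. The lowest value in the list, 0.317, was the background of 104 pseudogene peaks (21.8%) and of 2.49% of the others. For that reason the fold was also read within classes of background. Under 0.5 fragments the median fold was 7.65 at pseudogene peaks and 6.26 at others; from 0.5 to 1 it was 8.52 and 6.48, and from 1 to 2 it was 7.09 and 6.43. From 2 to 4 fragments it was 6.34 and 5.78, and from 4 to 8 it was 5.53 and 4.83. From 8 to 16 it was 3.73 and 3.92, from 16 to 32 it was 3.26 and 3.35, and above that 2.68 and 2.87. Pseudogene peaks thus had the higher median in each of the 5 classes below 8 fragments and a slightly lower one in each of the 3 above. Those 3 held 34, 22 and 3 pseudogene peaks, and the order in them was not tested.

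Weighted to the backgrounds of the pseudogene peaks, 12.2% of the other peaks reached 10-fold, in place of 9.77%, against the 21.0% of pseudogene peaks. Of the 476, 306 (64.3%, interval 59.9 to 68.5%) lay above the median of the other peaks in their class. The count was 53 of 78 for ribosomal protein copies (67.9%) and 209 of 313 where no parent was named (66.8%). It was 31 of 61 for other named parents (50.8%) and 5 of 11 for metabolic copies, near the 49.8% of the other peaks themselves. Of the highest peaks of the parent genes, 6 of 7 metabolic ones and 23 of 28 of the other named parents lay above their class median. Each of these was picked as the highest of its gene, while every copy peak was counted. The counts of parents therefore cannot be set against those of copies. The fragments behind a fold were few, with a median of 18 per pseudogene peak (interquartile range 10 to 32). At 18 fragments the exact Poisson interval runs from 61.4 to 155% of the value, so differences between single copies within that range are not detectable at this depth.

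**Figure D4:**
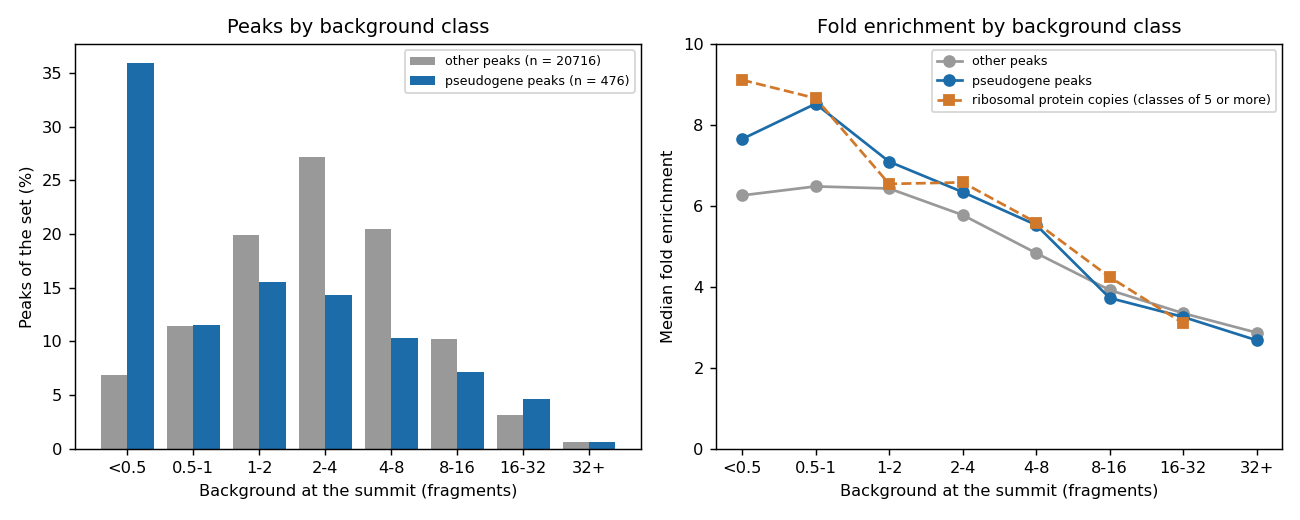
Left, share of pseudogene peaks and of other peaks, in percent, in each class of background (fragments at the summit). Right, median fold enrichment in the same classes, with ribosomal protein copies drawn where a class holds 5 or more. The median of pseudogene peaks is above that of other peaks below 8 fragments of background (7.65 against 6.26 in the lowest class) and slightly below it from 8 upward (3.73 against 3.92).

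The gene table splits pseudogenes into kinds, of which plain pseudogenes held 427 of the peaks and transcribed pseudogenes, those with evidence of a transcript of their own, held 49. The transcribed kind held a peak more often, in 32 of 367 (8.72%, interval 6.24 to 12.1%) against 373 of 7847 plain ones (4.75%, interval 4.30 to 5.25%). Their spans were longer, with a median of 3420 bp against 932 bp. Their peaks had a median fold of 5.65 against 6.88, and 3 of 49 reached 10-fold against 97 of 427. Most pseudogene peaks were not near protein-coding genes: 67 of 476 (14.1%) had one within 5 kb, and the median distance to one was 31.3 kb. Distances to genes of other kinds were not measured. A gene of a kind other than pseudogene or protein-coding also held the summit at 27 of the 476, and 4 summits lay in 2 pseudogenes each. Of the peaks named above, those of Gm8225, Gm8399, Rps2-ps6, Rps18-ps6, Got2-ps1 and Tpi-rs11 also lay in a long non-coding RNA gene.

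Chromosome X held 44 of the 476 peaks (9.24%), but 1.97% of all peaks. Of the 417 peaks on X, 10.6% (interval 7.95 to 13.9%) were in pseudogenes, against 2.08% (interval 1.89 to 2.28%) of the 20718 on autosomes. The pseudogenes themselves were distributed likewise: 10.6% of those outside protein-coding spans lie on X, and 42 of these 891 held a summit (4.71%), close to the 4.82% of all. Among ribosomal protein copies the share with a summit was 16 of 37 on X (43.2%, interval 28.7 to 59.1%) and 59 of 219 on autosomes (26.9%, interval 21.5 to 33.2%). Without these 9 Rps12 copies in a row it was 8 of 28 on X (28.6%, interval 15.3 to 47.1%). For all other pseudogenes it was 26 of 854 on X (3.05%) and 302 of 7172 on autosomes (4.21%), with overlapping intervals. On chromosome Y, 2 pseudogenes held a peak, Gapdh-ps15 and Mid1-ps1. Uterus comes from female mice, which carry no chromosome Y, so these peaks cannot be read as RNA made from chromosome Y in these mice. Where their reads came from, and whether the same sequence lies on another chromosome, was not tested.

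**Figure D5:**
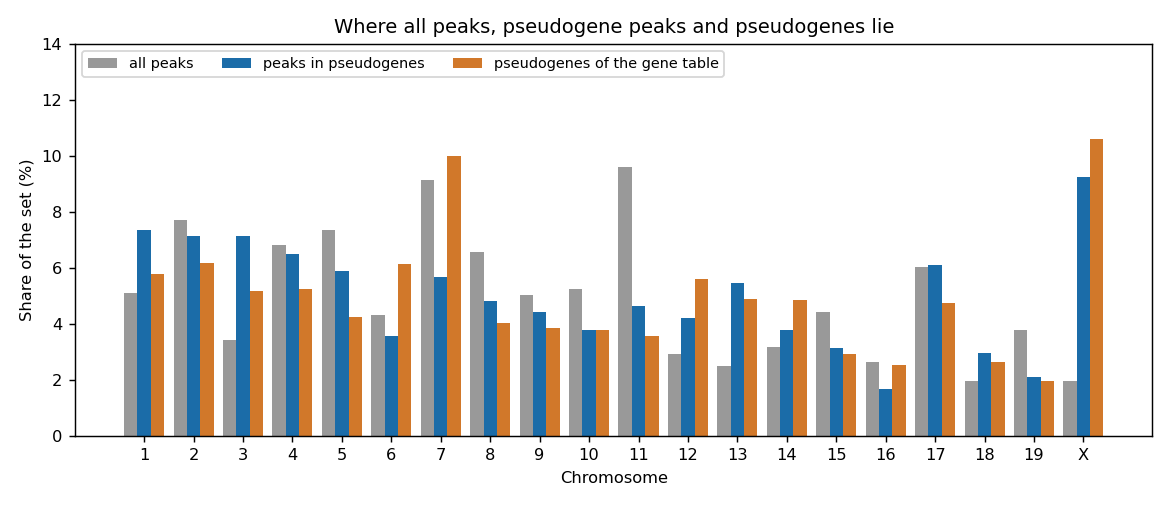
Share, in percent, of all 21192 peaks (grey), of the 476 pseudogene peaks (blue) and of the 8394 pseudogenes outside protein-coding spans (orange) on each of chromosomes 1 to 19 and X. On X the pseudogene peaks (9.24%) stand near the pseudogenes (10.6%) and above all peaks (1.97%).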

How the data were processed

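The deposited data were 1 peak list made from the ac4C immunoprecipitation library and the input control library. The genome build mm10 and the tools HISAT2 2.2.1 and MACS3 3.0.0a7 are named per the submitters' processing notes, which give no options. Each peak's fold enrichment, a ratio, its −log10 p-value and −log10 q-value, and its score were calculated by the authors' peak caller and deposited without replicates. The largest q-value in the list was 0.0499.

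From these values, the whole number of fragments at each summit and its background were recovered for 21192 of 21192 peaks, using the caller's pseudocount of 1 and a relative tolerance of 1e-05. The step was tested on simulated data. Exact Poisson intervals of the fold come from the fragments, with the background taken as known, and shares have Wilson intervals, all at 95%. PCR copies could not be told from separate molecules. Library totals were not used here.

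Genes came from the RefSeq table of GRCm38.p6 (49997 genes, 21900 protein-coding), which has no descriptions, strands or exons. Parents were therefore read from symbols, and for 12 peaks from synonyms. Of 88 named parents 76 matched a protein-coding gene. Glns and Gpi were read as older names of Glul and Gpi1. Where 2 pseudogenes held a summit, the peak was counted once, in the one with a named parent or else the shorter. In the shares of pseudogenes with a summit both were counted, so that 413 pseudogenes held one in place of 409. Summit and gene positions count from 1. No peak sequence is printed, as no genome was given.

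The groups, families and lists were chosen with earlier results of these data known. Peaks and copies are not replicates, so no p-values were calculated. Named were, for each family, the 3 most enriched pseudogenes, the one with most peaks and the widest peak; copies of the parents with most peaks; the mitochondrial insert; and peaks of at least 20-fold. Metabolic peaks, the 2 least enriched ribosomal protein copies and the other pseudogenes with their own name were added after their values were seen. Alternatives were a −log10 q of at least 10, overlap of at least 1 bp in place of the summit, other treatment of overlapping genes, 1 peak a pseudogene, and limits on the background. Some peaks of the naming rule are not reported here. Analyses used Python 3.11.15, pandas 2.3.3, numpy 2.4.6, scipy 1.17.1 and matplotlib 3.10.9.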

Additional observations from a re-analysis of the deposited data

How the results depend on the processing

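Of 148 values recomputed under the alternatives, 115 stayed within a set limit and 33 moved past it. For medians and shares the limit was the interval of the value. For numbers of peaks it was a set ratio to the main count, with no interval. With summits in protein-coding spans kept, 658 pseudogene peaks against 476 thus counted as within the limit. For numbers of peaks, staying within the limit therefore does not show that a count was stable. The cause was not tested except where the alternative sets it. Where −log10 q had to reach 10, which leaves fewer peaks, 258 pseudogene peaks were left, 46 of ribosomal protein copies, 4 metabolic, 26 of other named parents and 174 without a named parent. Median folds then were 9.09, 8.93 for ribosomal protein copies, 9.11 for other named parents and 9.10 where none was named, and median widths 319.5 bp over all, 483.5 bp for other named parents and 317 bp where none was named. The shares of pseudogenes with a peak became 2.81% over all families, 17.97% ribosomal protein, 9.76% metabolic, 1.93% other named and 2.36% without a named parent. With summits in protein-coding spans kept, the share of all pseudogenes became 5.32%, and other named parents had 93 peaks and a share of 4.97%, above the 4.38% of pseudogenes without a named parent, which turned the order of those families. Without the lowest background, the median fold of all pseudogene peaks was 6.41. Within background classes (under 0.5, 0.5 to 2, 2 to 8, at least 8 fragments) the median folds were 7.65, 7.35, 5.97 and 3.58 for all, 9.11, 8.44, 5.93 and 3.53 for ribosomal protein copies, and 7.65, 8.21, 6.08 and 3.58 where no parent was named. Among the 4 families recomputed, the ribosomal protein share was highest and the metabolic share next under each alternative that gave both. The mitochondrial insert, ribosomal RNA copies and pseudogenes with their own name were not recomputed. Of the 73 peaks of the naming rule, 50 passed a −log10 q of at least 10, 59 were above the lowest background and 69 lay in no gene of another kind. Chosen after seeing the data were plain pseudogenes only, symbols without synonyms, Pisd copies as metabolic, no Glns or Gpi, and no Rps12 stretch. None of these moved a value past its limit, though Pisd copies as metabolic raised that family from 11 to 16 peaks. No paired analysis was possible because each group is 1 library.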

Other observations

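A further 182 peaks had their summit both in a pseudogene and in the span of a protein-coding gene, and so were left out above. They lay in 149 pseudogenes and had a median fold of 6.05 and a median width of 287.5 bp. Of them, 28 (15.4%, 95% Wilson interval 10.9 to 21.3%) reached 10-fold, and 16 (8.79%) had the lowest background of the list. Ribosomal protein copies held 28 of these 182 peaks, with a median fold of 6.07. Whether the RNA of such a peak comes from the pseudogene or from the protein-coding gene cannot be told apart, since the list gives no strand.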
